A study of Mus musculus with 4 samples.

Results

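IRF4 peaks that carried neither a JunB nor a BATF peak, lay away from promoters, and were listed again in *Junb*-deficient cells numbered 5769 of the 31093 IRF4 peaks of *Junb*-sufficient Treg cells (18.6%, 95% interval 18.1 to 19.0%). They are called kept distal IRF4-alone peaks here. The name means that no JunB or BATF peak was called there, and not that neither factor was bound. A peak is a stretch of DNA with more chromatin immunoprecipitation-sequencing (ChIP-seq) fragments than its surroundings. Peaks were chosen by their presence or absence in the measured lists: no overlap with a JunB or BATF peak, an overlap of at least 1 bp with a *Junb*-deficient IRF4 peak, and a center more than 1 kb from every transcription start site (TSS) of a protein-coding transcript. These overlaps and distances are therefore a description and not a finding. Of the 31093 IRF4 peaks, 18575 had no JunB peak, 15516 had neither partner, 8410 of these had a *Junb*-deficient counterpart, and 5769 of those were distal.

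The study asked what JunB, an AP-1 transcription factor, does in Treg cells. Its ChIP-seq part asked whether IRF4 needs JunB to bind DNA. By chromatin immunoprecipitation and PCR it reported less IRF4 binding in *Junb*-deficient cells at sites near *Icos*, *Ctla4*, *Gzmb*, and *Maf*. It also reported unchanged IRF4 binding in these cells at sites near *Prdm1* and *Gata3*. CD4+CD25+ Treg cells from spleens of young adult C57BL/6 mice were activated for 60 h with antibodies to CD3 and CD28 and with IL-2, and chromatin was cut with micrococcal nuclease. Antibodies to JunB, BATF, and IRF4 were used on *Junb*-sufficient cells and the IRF4 antibody on *Junb*-deficient ones, with 1 library per condition and 4 libraries in all. The study's methods name *Junb* fl/fl mice and *Cd4*-Cre *Junb* fl/fl mice, in which the *Cd4* promoter drives Cre in T cells in general. The sample labels instead name Foxp3cre JUNB+/+ and Foxp3cre JUNBFl/Fl, so which Cre was carried, and whether the *Junb*-sufficient cells carried one, cannot be told from these sources. The antibody label of the *Junb*-sufficient BATF library reads IRF4 and that of the IRF4 library reads BATF. The sample titles were followed, which match the study's own list of libraries and files. The list titled IRF4 (31093 peaks, 12.8% of tags in peaks) was also closer in size to the *Junb*-deficient IRF4 list (29033 peaks, 11.2%) than the list titled BATF (13570 peaks, 5.03%). With the names exchanged, the same rule found 195 of 13570 peaks, so the class rests on the titles. Peak lists hold no expression values, so the labelled cell type could not be checked against marker expression. Genotype and library cannot be told apart with 1 library each, no test between genotypes was made, and intervals (exact binomial, 95%) cover counting error over peaks only.

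IRF4 belongs to the interferon regulatory factors, whose DNA-binding domain contacts the core GAAA. On its own IRF4 binds DNA weakly. It binds 2 spaced cores (tandem IRF sites, as in interferon-stimulated response elements), composite sites with an ETS-family partner such as PU.1 (ETS-IRF sites), or composite sites with an AP-1 dimer such as BATF with a Jun protein (AP-1-IRF composite elements, AICE). In Treg cells IRF4 is required for the effector program, and JunB and BATF are known partners there. Peaks that have IRF4 but no JunB or BATF peak therefore raise the question which sequences they hold.

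The sequences below show 1 kept distal IRF4-alone peak for each of 5 motifs the results turn on, and 1 with no match. Each runs from 100 bp before to 100 bp after the peak center in mm9, plus strand, 5′ to 3′, with the match in capitals. Where several peaks held a motif, the one nearest the top of both IRF4 lists is shown. The position of the match in the window played no part in the choice. The tandem IRF and CTCF matches shown lie near the 3′ end of their windows, away from the center. The tandem IRF peak is at chr16:32934408-32935020, in an intron of *Lrch3*. It stood at place 2425 of 31093 in *Junb*-sufficient cells and at place 1365 of 29033 in *Junb*-deficient cells. The AICE peak is at chr15:81364771-81365383, intergenic, and its composite match contains an AP-1 match. The ETS peak is at chr12:108285382-108285994, intergenic, 441.2 kb from the nearest TSS, that of *3110018I06Rik*. The RUNX peak is at chr8:89231719-89232331, in an intron, 37.6 kb from a TSS of *Gm10638*. The CTCF peak is at chr7:117307426-117308038, intergenic, 41.9 kb from *Wee1*, a kinase that restrains entry into mitosis. The peak without a match is at chr19:53515849-53516461, intergenic, 51.1 kb from *Smndc1*, and had the lowest mean place over both lists.
Tandem IRF, Lrch3 intron: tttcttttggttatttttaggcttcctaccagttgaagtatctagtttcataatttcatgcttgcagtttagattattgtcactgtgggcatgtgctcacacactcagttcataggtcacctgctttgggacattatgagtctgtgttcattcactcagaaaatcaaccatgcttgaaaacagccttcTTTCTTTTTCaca
AICE, nearest to Gm5218: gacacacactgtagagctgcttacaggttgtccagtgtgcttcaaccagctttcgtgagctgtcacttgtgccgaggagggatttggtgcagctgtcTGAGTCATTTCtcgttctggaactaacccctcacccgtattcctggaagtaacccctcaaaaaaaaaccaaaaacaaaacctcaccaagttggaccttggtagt
ETS, nearest to 3110018I06Rik: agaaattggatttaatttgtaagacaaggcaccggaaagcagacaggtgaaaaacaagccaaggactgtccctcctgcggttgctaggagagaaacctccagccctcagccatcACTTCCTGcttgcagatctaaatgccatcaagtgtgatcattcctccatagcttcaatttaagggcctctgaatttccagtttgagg
RUNX, nearest to Gm10638: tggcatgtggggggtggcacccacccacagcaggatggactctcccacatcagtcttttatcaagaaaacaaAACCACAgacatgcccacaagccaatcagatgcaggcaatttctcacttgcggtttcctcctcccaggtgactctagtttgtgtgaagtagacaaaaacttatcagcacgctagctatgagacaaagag
CTCF, nearest to Wee1: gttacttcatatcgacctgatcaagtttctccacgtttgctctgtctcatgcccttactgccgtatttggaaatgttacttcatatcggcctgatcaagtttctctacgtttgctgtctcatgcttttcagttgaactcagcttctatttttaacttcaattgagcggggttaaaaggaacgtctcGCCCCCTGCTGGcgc
No match, nearest to Smndc1: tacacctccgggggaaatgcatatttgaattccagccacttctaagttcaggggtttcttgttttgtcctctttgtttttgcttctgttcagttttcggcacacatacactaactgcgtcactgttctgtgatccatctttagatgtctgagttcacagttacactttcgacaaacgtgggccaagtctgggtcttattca

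Kept distal IRF4-alone peaks held tandem IRF sites more often, and AP-1 sites less often, than like IRF4 peaks that had no *Junb*-deficient counterpart. A tandem IRF match lay within 100 bp of the center of 837 of the 5769 peaks (14.5%, 95% interval 13.6 to 15.4%) and of 494 of the 6133 distal IRF4-alone peaks missing from the *Junb*-deficient list (8.06%). The odds ratio was 1.94 (1.72 to 2.18, exact adjusted p = 1.78e-28). An AP-1 match was present in 13.0% of the kept peaks and in 27.6% of the missing ones (odds ratio 0.391, 0.356 to 0.430, exact adjusted p = 1.43e-87). The AICE composite was rare in both, at 1.39% and 2.18% (odds ratio 0.630, exact adjusted p = 0.00150). In windows 5 kb downstream of the kept peaks, of which 5638 were clear of the peaks of all 4 lists, tandem IRF matches stood at 2.45%, AP-1 matches at 3.87%, and AICE matches at 0.195%. For all 3 motifs the interval at the peaks did not overlap that of the downstream windows.

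These tests were two-sided Fisher exact tests over peaks, with Benjamini-Hochberg adjustment over 33 comparisons of 11 motifs with 3 other classes of IRF4 peaks (exact adjusted p). Neighboring peaks are not independent samples, so the p-values describe these lists and not cell preparations. The kept peaks also stood higher in the *Junb*-sufficient list than the missing ones, at a median of 62.3% against 80.1% of the way down, and place in the list was taken as a stand-in for strength, although the headers do not name the order. An odds ratio taken within 20 strata of that place (Mantel-Haenszel) was 1.82 for tandem IRF and 0.376 for AP-1.

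The motifs were matched on both strands as fixed letters, with N for any base. Tandem IRF was GAAANNGAAA and ETS-IRF was GGAANNGAAA. AICE was TTTCNNNNTGANTCA or GAAATGANTCA, and AP-1 was TGACTCA or TGAGTCA, so that some AICE matches contain an AP-1 match. ETS was CAGGAAGT or CCGGAAGT, and STAT was TTCCNGGAA. The RUNX site, TGTGGTT, followed the usual core. The GC box was GGGCGG. For TCF/LEF the letters were CTTTGAA and also the version ending in thymine. For GATA they were AGATAAG. For the insulator factor CTCF a fixed consensus core was matched, named here without its letters. Over windows of the same length at all 31093 IRF4 peaks, the share with a match was 9.49% for tandem IRF, 3.74% for ETS-IRF, 2.86% for AICE, 26.4% for AP-1, 6.06% for ETS, 11.1% for RUNX, 2.08% for CTCF, 10.4% for TCF/LEF, 1.60% for STAT, 10.5% for the GC box, and 4.47% for GATA. A match is a stretch of letters and not a measured binding site, and a window without one may hold a weaker version.

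**Figure D1:**
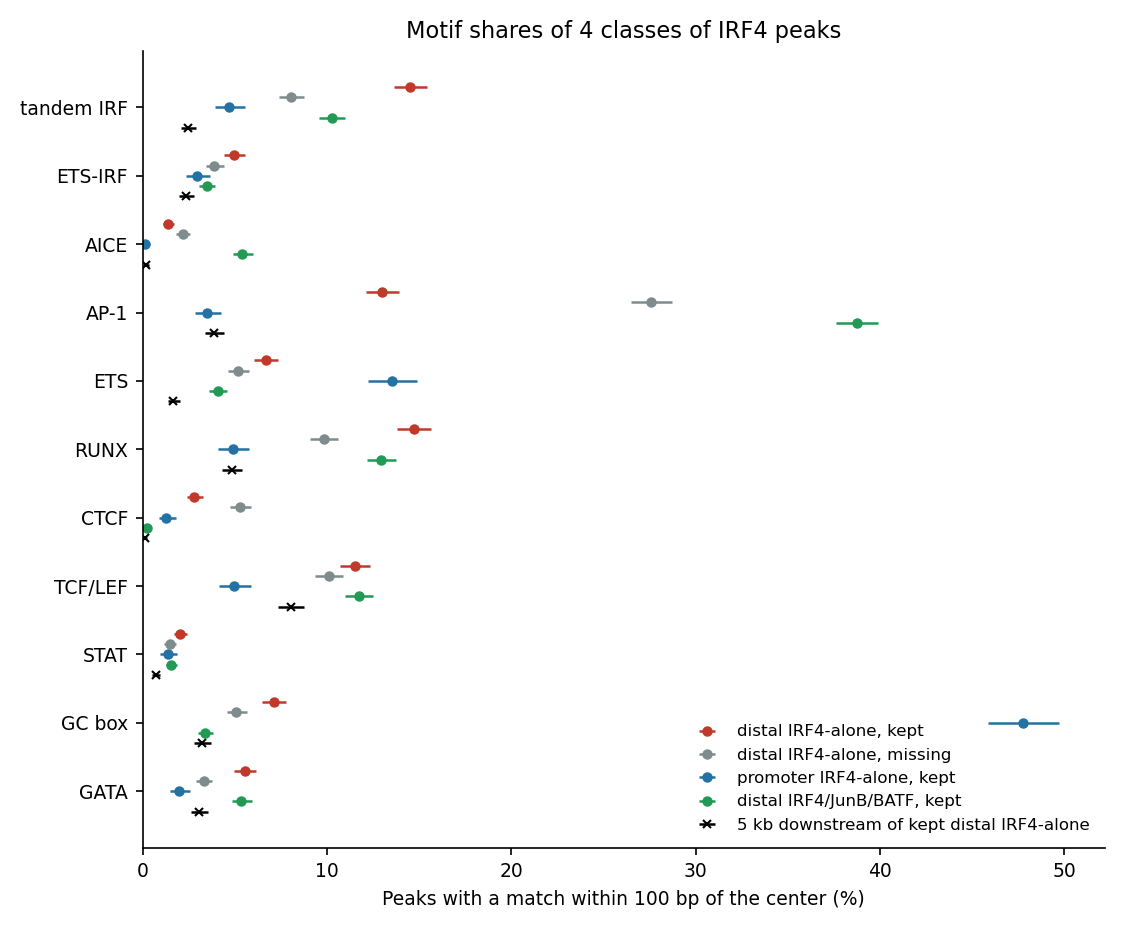
Share of peaks with a motif match within 100 bp of the center (x axis, %) for 11 motifs (y axis), in 4 classes of IRF4 peaks of *Junb*-sufficient cells and in windows 5 kb downstream of the kept distal IRF4-alone peaks; bars are exact binomial 95% intervals. Tandem IRF is highest in the kept distal IRF4-alone peaks (14.5%), AP-1 in the triple sites (38.7%), and the GC box in promoter peaks (47.8%).

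Any of the 3 IRF motifs was found in 1152 kept distal IRF4-alone peaks (20.0%, 18.9 to 21.0%), against 13.5% of the missing peaks and 4.79% of the downstream windows. None of the 11 motifs was found in 2183 of them (37.8%, 36.6 to 39.1%). This share was close to that of the missing peaks (39.1%) and below that of the downstream windows (73.1%).

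RUNX sites were about as frequent as tandem IRF sites in the kept distal IRF4-alone peaks. RUNX factors partner with FOXP3 and shape T cell lineages, and their site was present in 14.7% of the peaks, against 9.82% of the missing peaks (odds ratio 1.59, 1.42 to 1.77, exact adjusted p = 9.08e-16) and 4.82% of the downstream windows. The GATA site was also more frequent in kept than in missing peaks, at 5.53% against 3.31% (odds ratio 1.71, exact adjusted p = 6.50e-09). The CTCF site, bound by the factor that anchors chromatin loops, went the other way, at 2.81% against 5.28% (odds ratio 0.518, exact adjusted p = 1.41e-11). Within strata of place the CTCF odds ratio was 0.702, with an adjusted p of 7.79e-04.

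Smaller differences in the same direction as tandem IRF were seen for the GC box (7.11% of kept against 5.09% of missing peaks, exact adjusted p = 7.64e-06), for ETS (6.67% against 5.19%, exact adjusted p = 8.42e-04), for ETS-IRF (4.96% against 3.88%, exact adjusted p = 0.00589), for TCF/LEF (11.5% against 10.1%, exact adjusted p = 0.0153), and for STAT (2.03% against 1.47%, exact adjusted p = 0.0234). The TCF/LEF difference no longer passed in 4 settings besides the exchange of names: in the first 50% of the lists (odds ratio 1.03), with windows reaching 50 bp (1.13) or 200 bp (1.06) from the center, and without the peaks near a JunB or BATF center (1.11). Within strata of place the ETS-IRF and STAT differences no longer passed, with adjusted p of 0.0623 and 0.356. The STAT difference also did not pass with centers within 100 bp counted as shared (exact adjusted p = 0.0708) or with distal set at 5 kb (exact adjusted p = 0.113). When every list was restricted to its first 50%, the ETS odds ratio turned to 0.893 (exact adjusted p = 0.345). There the ETS-IRF difference did not pass either (odds ratio 1.18, exact adjusted p = 0.266).

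Distal sites bound by all 3 factors and also listed in *Junb*-deficient cells (triple sites, 7127 peaks) had a different motif content. An AP-1 match was present in 38.7% of them, against 13.0% of the kept distal IRF4-alone peaks (odds ratio 0.236, 0.216 to 0.258, exact adjusted p = 9.26e-246). An AICE match was present in 5.42% against 1.39% (odds ratio 0.246, exact adjusted p = 7.60e-37). The classes were set by overlap with peaks of JunB and BATF, both AP-1 factors. The AP-1 and AICE differences are therefore in part built into the rule and are given as a description. Tandem IRF was more frequent in the IRF4-alone peaks, at 14.5% against 10.3% (odds ratio 1.48, 1.33 to 1.65, exact adjusted p = 7.60e-13), as were ETS-IRF (4.96% against 3.49%, odds ratio 1.44, exact adjusted p = 6.06e-05) and ETS (6.67% against 4.07%, odds ratio 1.69, exact adjusted p = 1.11e-10). RUNX differed little, at 14.7% against 13.0% (odds ratio 1.16, 1.05 to 1.28, exact adjusted p = 0.00503). The 2 comparisons that did not pass were those of TCF/LEF (odds ratio 0.979, 0.878 to 1.09, exact adjusted p = 0.720) and GATA (odds ratio 1.03, 0.887 to 1.20, exact adjusted p = 0.718). CTCF was at 2.81% against 0.253%, and its odds ratio of 11.4 was 2.93 within strata of place.

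IRF4-alone peaks at promoters that were also kept (2641 peaks) differed from the distal ones in all 11 motifs, although the STAT difference (1.36% against 2.03%) no longer passed within strata of place (adjusted p of 0.0623). In the first 50% of the lists, the STAT and ETS-IRF differences did not pass (odds ratios 1.15 and 1.17), and CTCF turned to 0.551 without passing. There the odds ratios of tandem IRF, AICE, AP-1, and GATA passed but were smaller, at 1.83, 2.58, 2.67, and 1.47, against 3.45, 9.27, 4.13, and 2.91 over the whole lists. The GC box was present in 47.8% of the promoter peaks and 7.11% of the distal ones (odds ratio 0.0836, 0.0737 to 0.0948), and ETS in 13.5% and 6.67% (odds ratio 0.458, exact adjusted p = 9.77e-23). Tandem IRF was at 4.70% of promoter and 14.5% of distal peaks (odds ratio 3.45, 2.84 to 4.18, exact adjusted p = 5.73e-44), and RUNX at 4.88% and 14.7% (odds ratio 3.36, exact adjusted p = 1.55e-43). AP-1 matches were in 3.48% of the promoter peaks (odds ratio 4.13, exact adjusted p = 1.46e-47). The median GC content of these windows was 59.7% at promoter peaks and 44.8% at the kept distal IRF4-alone peaks, against 44.3% at the missing peaks and 41.8% at the triple sites. The part of GC content in the motif shares was not tested. Promoter and distal peaks were divided by distance to a TSS, so the GC box difference describes that division.

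**Figure D2:**
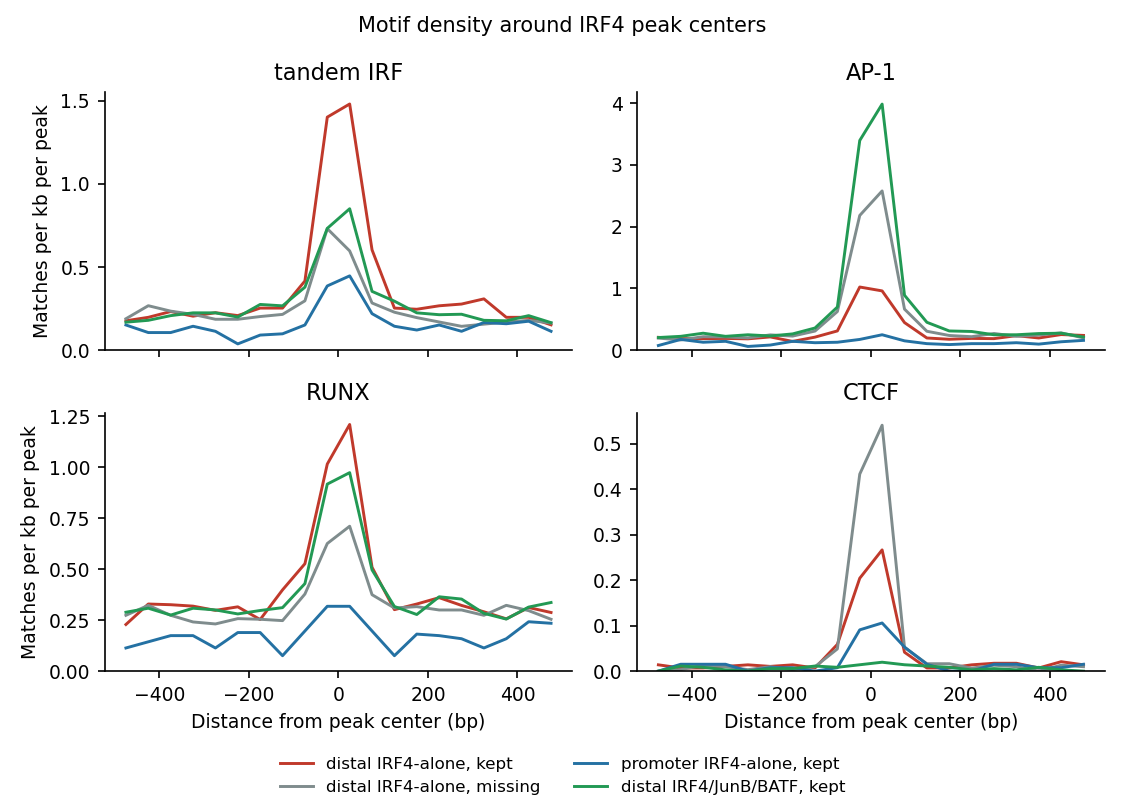
Motif matches per kb per peak (y axes, linear) in 50 bp steps of distance from the peak center (x axis, bp) for tandem IRF, AP-1, RUNX, and CTCF in 4 classes of IRF4 peaks. In kept distal IRF4-alone peaks all 4 motifs are densest at the center, and tandem IRF reaches 1.44 matches per kb in the central 100 bp, against 0.208 at 300 to 500 bp.

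Matches were concentrated at the peak centers. Tandem IRF matches in kept distal IRF4-alone peaks were 6.91-fold denser in the central 100 bp than at 300 to 500 bp from the center, and 3.37-fold denser in the missing peaks. For AP-1 the order was the opposite, 4.67-fold in kept and 10.9-fold in missing peaks, and it was 15.2-fold in triple sites. RUNX matches were 3.79-fold, ETS 4.68-fold, GATA 2.26-fold, and CTCF 19.4-fold denser at the center of the kept peaks.

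Within the kept distal IRF4-alone peaks, peaks with a tandem IRF site had an AP-1, ETS, or CTCF site less often than peaks without one. Of the 837 peaks with a tandem IRF site, 6.93% (5.30 to 8.87%) also had an AP-1 site, against 14.0% (95% interval 13.1 to 15.0%) of the 4932 without one. ETS sites were in 2.75% (1.75 to 4.09%) against 7.34% (6.63 to 8.10%), and CTCF sites in 0.478% (0.130 to 1.22%) against 3.20%. GATA sites stood at 5.50% and 5.54%. RUNX sites were in 12.1% (9.94 to 14.5%) against 15.2% (14.2 to 16.2%). These shares are a description, and overlap of the letters of one motif with those of another was not removed.

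The share of IRF4-alone distal peaks that were kept was 48.5% (5769 of 11902, 47.6 to 49.4%). It stood beside 65.0% of all 31093 IRF4 peaks, 73.1% (2641 of 3614) of IRF4-alone promoter peaks, and 83.3% (7127 of 8555) of distal triple sites. The rule used this overlap, so nothing is read from it. In 5 equal parts of the *Junb*-sufficient list, from top to bottom, 86.2%, 78.5%, 63.0%, 47.4%, and 31.3% of the distal IRF4-alone peaks were kept. Within each part the tandem IRF share was higher in kept than in missing peaks. It was 19.6%, 16.3%, 14.8%, 13.9%, and 12.9% in the kept peaks and 3.23%, 9.40%, 8.59%, 8.24%, and 7.72% in the missing ones. The AP-1 share was 11.3%, 12.8%, 14.0%, 13.6%, and 11.5% in the kept peaks and 12.9%, 27.4%, 31.4%, 29.3%, and 25.7% in the missing ones. In the top part the intervals of kept and missing peaks overlapped for both motifs, and that part held 31 missing peaks.

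**Figure D3:**
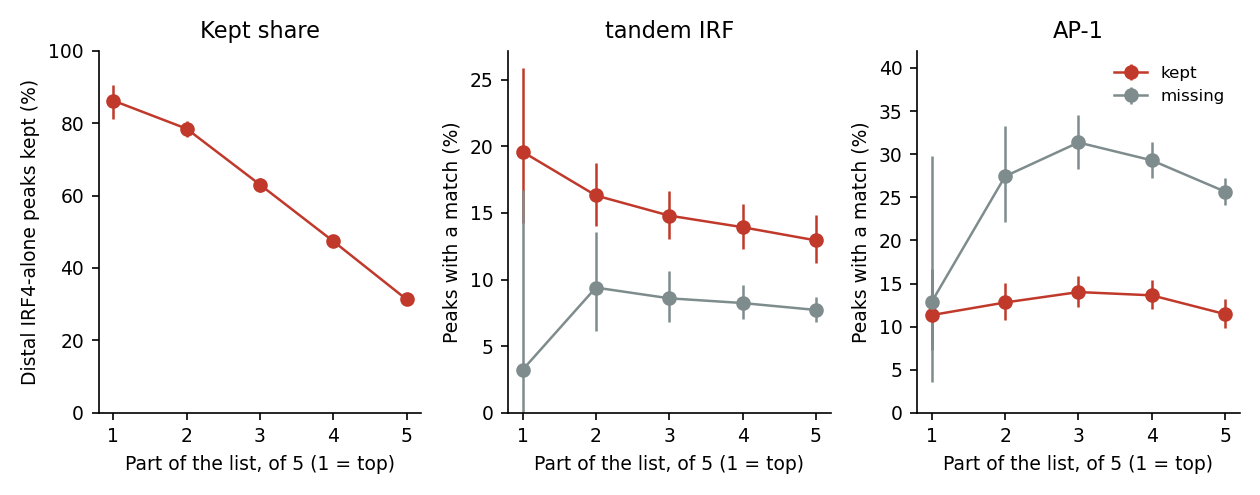
Kept share of the distal IRF4-alone peaks (left, %) and share of kept and missing peaks with a tandem IRF (middle, %) or AP-1 match (right, %), by part of the *Junb*-sufficient IRF4 list, cut into 5 equal parts (x axes, 1 = top); bars are exact binomial 95% intervals. Tandem IRF shares of kept peaks (12.9% to 19.6%) lie above those of missing peaks in all 5 parts, and AP-1 shares of kept peaks stay between 11.3% and 14.0%.

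Place in the list, given as percent from the top, was compared between the genotypes as a description, since both lists entered the rule. The kept distal IRF4-alone peaks stood at a median of 62.3% (quartiles 43.9% and 79.4%) in *Junb*-sufficient cells and 55.2% (34.6% and 77.2%) in *Junb*-deficient cells. The median difference, deficient minus sufficient, was -5.72 points (quartiles -19.4 and 7.90), and 3535 of the 5769 peaks (61.3%, 60.0 to 62.5%) stood higher in the *Junb*-deficient list. Promoter IRF4-alone peaks had a median difference of -1.71 points, with 54.4% higher. Triple sites had a median difference of 2.91 points, with 35.1% higher in the *Junb*-deficient list. Places of the kept distal IRF4-alone peaks in the 2 lists had a Spearman's rho of 0.582 over the 5769 peaks, which share both libraries. Paired peak centers lay a median of 30 bp apart. Each place ranks a peak only within one library. A higher place is therefore relative to the other peaks of that list and is not a measured gain of binding.

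In the 5 parts of the *Junb*-sufficient list the median difference of the kept distal IRF4-alone peaks was -2.30, -1.49, -2.22, -5.07, and -14.1 points, and that of triple sites 2.46, 7.13, 3.29, -5.32, and -19.0 points. That of promoter IRF4-alone peaks was -1.51, 2.18, 1.41, -1.71, and -11.8 points. In the lowest 2 parts all these classes had negative medians. In the top 3 parts the kept distal IRF4-alone peaks and the triple sites had opposite signs. There the promoter peaks shared the sign of the distal ones in the top part only. Peaks without a counterpart have no difference, and they were most frequent in the lowest parts.

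**Figure D4:**
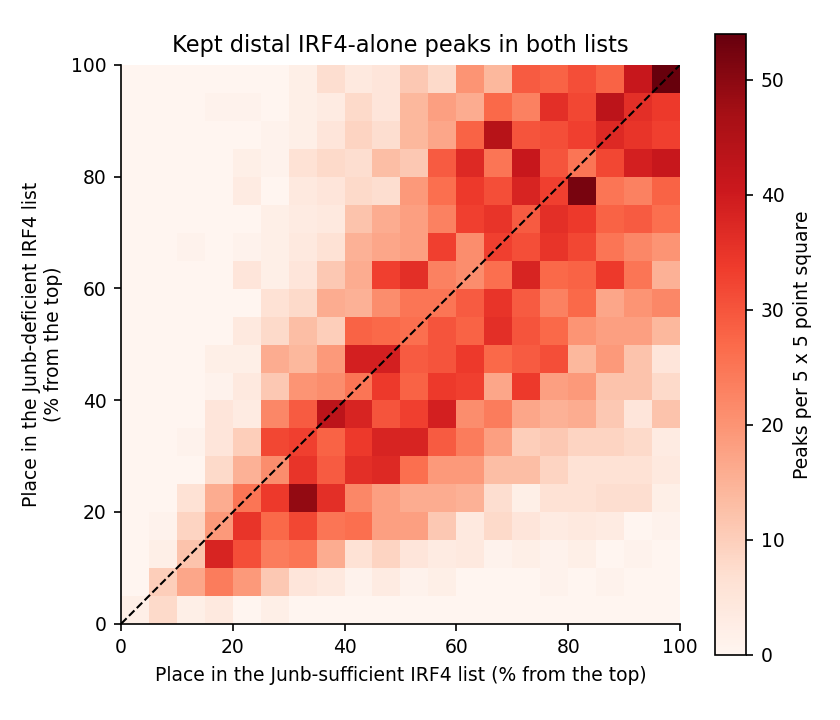
Place of the 5769 kept distal IRF4-alone peaks in the *Junb*-sufficient (x axis) and the *Junb*-deficient (y axis) IRF4 lists, as percent from the top; color gives the peaks in each square of 5 by 5 points and the dashed line marks equal places. Of the peaks, 61.3% lie below the line, at a higher place in the *Junb*-deficient list.

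When the kept distal IRF4-alone peaks were divided into 4 equal groups by this difference, motif shares varied across them. From the group that moved up most to the group that moved down most, AP-1 matches were in 8.46%, 10.5%, 11.6%, and 21.4% of the peaks. Tandem IRF matches were in 16.0%, 16.9%, 13.9%, and 11.2%. GATA matches were in 8.74%, 6.31%, 3.61%, and 3.47%, whereas CTCF matches were in 0.902%, 2.15%, 3.81%, and 4.37%. RUNX shares ran from 16.0% to 13.1%. The groups also differed in where they stood in the *Junb*-sufficient list, at medians of 75.4%, 58.8%, 59.6%, and 56.1% from the top in the same order, and shares such as that of CTCF varied with that place, from 0.516% to 4.69% over the 5 parts of the list. The groups were cut by measured places and these shares carry no test.

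The 10 kept distal IRF4-alone peaks with the lowest mean place over both lists were spread over 8 chromosomes. All 10 stood higher in the *Junb*-deficient list, beside 61.3% of the whole class. Place in the *Junb*-deficient list entered the choice of these 10 peaks, so nothing is read from their shared direction. The one 24.7 kb from *Jak2*, a cytokine receptor kinase, at chr19:29301276-29301888, stood at place 2121 in *Junb*-sufficient and 366 in *Junb*-deficient cells. An intronic peak at chr10:18728961-18729573, 2.50 kb from a TSS of *Tnfaip3*, which restrains NF-κB signaling, stood at 2617 and 908. A peak at chr9:32717809-32718421, 214.5 kb from *Ets1*, stood at 1947 and 820. Others were nearest to *Smndc1*, *Hipk2*, *Gadd45a*, *Rnf149*, and *Lrch3*.

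The 5 peaks that moved up farthest had differences of -78.9 to -72.6 points. At chr7:150245747-150246359, in an intron 7.41 kb from a TSS of *Cd81*, which encodes a tetraspanin, the place was 29737 in *Junb*-sufficient and 6685 in *Junb*-deficient cells. At chr3:20122690-20123302, 19.1 kb from *Cpa3*, it was 29628 and 5709, and the window held a GATA match. The 5 that moved down farthest had differences of 60.9 to 75.7 points. Those nearest to *Chd7*, a chromatin remodeler (chr4:8862997-8863609, 7471 and 26878), and *Trib1* (chr15:59549976-59550588, 10493 and 28304) held AP-1 matches, and those nearest to *Rfx7*, *Itga2*, and *Pparg* did not.

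Most kept distal IRF4-alone peaks lay in introns or between genes. The center was in an intron of a protein-coding gene in 46.0% (44.7 to 47.2%), intergenic in 50.7%, in an untranslated region in 1.66%, and in coding sequence in 1.06%. The missing peaks had 46.7% in introns and the triple sites 51.4%. The median distance to a TSS was 23.1 kb, against 24.4 kb for the missing peaks and 25.8 kb for the triple sites. Of the kept peaks, 12.3% lay 1 to 5 kb from a TSS and 14.0% farther than 100 kb.

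Few of them lay close to a JunB or BATF peak. A JunB peak center was within 5 kb of 654 (11.3%, 10.5 to 12.2%) and a BATF peak center within 5 kb of 232 (4.02%, 3.53 to 4.56%), at median distances of 20.7 kb and 30.1 kb. The missing peaks had 9.65% and 2.92%. The peaks near each limit of the rule were few. The nearest TSS lay at most 100 bp beyond the limit of 1 kb for 34 kept peaks, and 30 otherwise like peaks lay at most 100 bp inside it. A JunB peak edge lay within 100 bp of 47, and 42 of the 1734 otherwise like peaks that overlapped a JunB peak did so by at most 100 bp. The overlap with the *Junb*-deficient peak was at most 100 bp for 46, with a median of 579 bp, and 13 missing peaks had a *Junb*-deficient peak edge within 100 bp. JunB peaks were 151 bp wide and the *Junb*-sufficient IRF4 peaks 613 bp. Widening JunB peaks to the IRF4 width left 5675 kept distal IRF4-alone peaks.

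At least 1 kept distal IRF4-alone peak lay within 100 kb of a TSS of 10394 of 22219 protein-coding genes, or 46.8%. This is the share against which the following counts within 100 kb are read. Counts within 50 kb are read against 6595 of the 22219 genes, and counts by nearest gene against 4074 of them (18.3%). An IRF4 peak of any class lay within 100 kb of 81.0% of genes, and all genes of the 6 lists below had one. The lists were chosen with results of these data known, their genes differ in the length and gene density of their surroundings, and none was tested.

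Genes of T cell receptor signaling and of the resting T cell state had kept distal IRF4-alone peaks near nearly every member, as they did kept triple sites. In the signaling list 11 of 12 genes had a kept distal IRF4-alone peak within 100 kb, all but *Plcg1*, with a median of 2 peaks per gene, and 11 of 12 had a kept triple site that close. Within 50 kb, 6 of the 12 had a kept distal IRF4-alone peak, and 6 were the nearest gene of one. *Prkcq*, which encodes the kinase PKCθ downstream of CD28, had 6, and the highest, at chr2:11091458-11092070, 1.98 kb from a TSS, stood at place 1835 in *Junb*-sufficient and 2550 in *Junb*-deficient cells. *Cd247*, which encodes the zeta chain of the receptor complex, had 4. The best of *Cd247*, in an intron at chr1:167774470-167775082, stood at 4914 and 1783. *Lcp2*, an adaptor, had 3, the highest at 4504 and 4806.

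In the resting T cell list 10 of 11 genes had at least 1, all but *Foxo1*, and 10 of 11 had a kept triple site. Within 50 kb it was 9 of 11. *Bach2*, a repressor that restrains effector differentiation, had 5 among 32 IRF4 peaks within 100 kb, 15 of which were triple sites. The highest of the 5, in an intron at chr4:32367963-32368575, stood at 5646 and 1927. *Id3*, an inhibitor of E proteins, had 4 and no triple site, the highest at 5279 and 2591. *Bcl2*, which opposes apoptosis, had 2, the highest at 5102 and 2149, in an intron. *Lef1* and *Klf2* had 3 each, *Tcf7*, *Ccr7*, and *Il7r* had 2 each, and *S1pr1* had 1.

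Genes of the interferon response, which other interferon regulatory factors drive through tandem IRF sites, had at least 1 in 17 of 18 cases, all but *Oas1a*. Of the 18, 4 were the nearest gene of a kept distal IRF4-alone peak, beside 18.3% of all protein-coding genes. *Irf1* had 4, the highest 6.01 kb away at chr11:53577201-53577813, at places 5612 and 4394. *Irf7* had 3, the highest at 12889 and 2189. *Ifit1*, *Ifit2*, and *Ifit3* lie together and shared the same best-placed peak, in an intron at chr19:34644388-34645000, with places 16999 and 24597. *Mx1* had 1 at 28040 and 22542, 5.68 kb away.

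In the list of Treg identity genes 8 of 12 genes had a kept distal IRF4-alone peak within 100 kb, and *Foxp3*, *Il2ra*, *Cbfb*, and *Satb1* had none. *Ikzf2*, which encodes Helios, had 2 and no kept triple site. The higher one, intergenic at chr1:69738401-69739013 and 6.17 kb from a TSS, stood at 5065 in *Junb*-sufficient and 308 in *Junb*-deficient cells. *Il2rb*, the IL-2 receptor beta chain, had 6, *Entpd1*, the ectoenzyme CD39, had 4, and *Lrrc32*, which displays latent TGF-β, and *Runx1* had 3 each. *Tnfrsf18*, which encodes GITR, had 1, at 19217 and 2971. In the effector Treg list 7 of 14 genes had at least 1, a share close to the 46.8% of all genes. A kept triple site lay within 100 kb of all 14 of these genes, of 10 of the 12 Treg identity genes, and of 11 of the 18 interferon response genes, beside 43.7% of all protein-coding genes. *Gzmb*, a granzyme, had 4, the highest at 7879 and 17082. *Ctla4* had 3, the highest at 11335 and 10243, *Tigit* had 2, both with a tandem IRF match, and *Prdm1*, which encodes Blimp-1, had 1 at 5539 and 2411. *Icos*, *Fgl2*, *Maf*, *Nt5e*, *Klrg1*, *Ccr10*, and *Gata3* had none, although *Icos* had 17 IRF4 peaks within 100 kb, 10 of them kept triple sites.

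**Figure D5:**
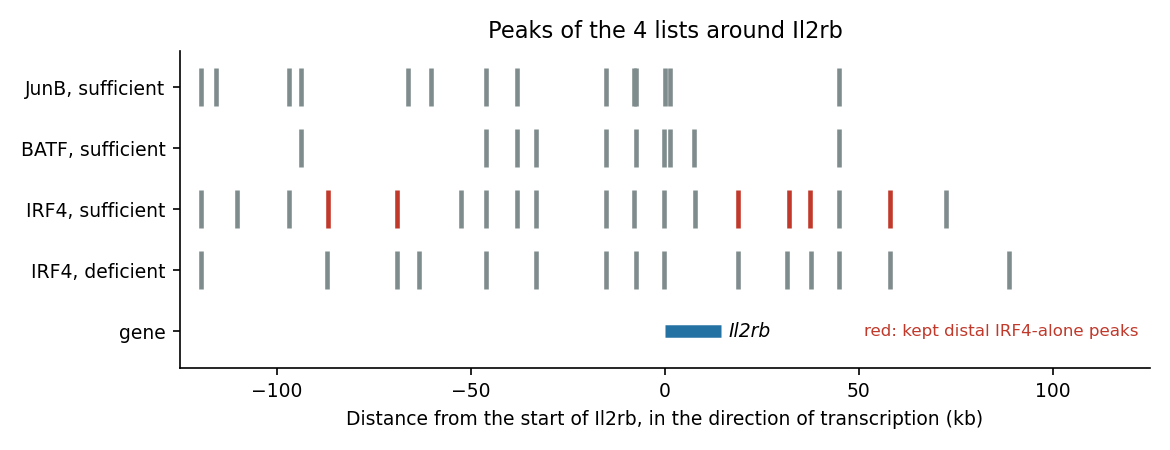
Peaks of the 4 lists around *Il2rb* by distance from the start of the gene in the direction of transcription (x axis, kb); each tick is a peak center, red ticks are kept distal IRF4-alone peaks, and the blue bar is the gene. The 6 red ticks lie at -86.8, -69.0, 18.8, 31.9, 37.5, and 57.9 kb. By the rule each overlaps a *Junb*-deficient IRF4 peak and no JunB or BATF peak, so this pattern was fixed by selection.

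Around *Il2rb* the 6 kept distal IRF4-alone peaks lay among sites where all 3 factors had peaks, such as those at -15.3 and -38.2 kb. The highest of the 6, at chr15:78306404-78307016 and 17.5 kb from the nearest TSS, stood at place 8200 in *Junb*-sufficient and 4133 in *Junb*-deficient cells. Among the genes of ETS and RUNX factors, 6 of 11 had a kept distal IRF4-alone peak within 100 kb. *Runx3* had 5, the highest at 10401 and 4326, *Etv6* had 4, and *Fli1* had 2, the highest at 6891 and 2797.

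Counted by nearest gene, the genes with most kept distal IRF4-alone peaks were *3110018I06Rik* with 12, *Gadd45g* and *Zfp36l1* with 10 each, *Chd7* with 9, *Eea1* and *Zbtb20* with 8 each, and *Cd47*, *Gfra2*, *Myc*, *Plcl1*, *Prkcq*, and *Rere* with 7 each. Several of these lie beside long stretches without genes: the 12 peaks nearest to *3110018I06Rik* reached 646.1 kb away and the 7 nearest to *Myc* lay 224.5 to 765.5 kb away. At *Zbtb20*, which encodes a zinc finger repressor, all 8 lay within 51.5 kb of a TSS, 5 of the 8 held a tandem IRF match, and 6 stood higher in the *Junb*-deficient list. At *Eea1* all 8 stood higher there.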

How the data were processed

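Peak positions were taken from the 4 deposited lists, 1 for each library. Reads were aligned by the authors to mm9 with Bowtie2 and peaks were called library by library with HOMER (version 4.8 in the submitters' processing notes), at a false discovery rate of 0.001, at least 4-fold over the surrounding 10 kb, and at most 1 tag per bp. The deposited score column is 1 for every peak, so no peak height was used, and place in the list stood in for strength. Tags used per library ranged from 16.0 to 17.9 M (mega), and the share of tags in peaks was 4.27% for JunB, 5.03% for BATF, and for IRF4 12.8% with and 11.2% without *Junb*. Lists held 13570 to 31093 peaks.

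Overlaps used 1 bp and TSSs used 45961 positions of protein-coding transcripts in the GENCODE annotation of the same assembly, whose chromosomes contained all peaks. Motif windows of 100 bp on each side of the center were read from that assembly. Shares have exact binomial 95% intervals. Motif shares were compared with two-sided Fisher exact tests with Benjamini-Hochberg adjustment. The procedures were tested on simulated data. Python 3.11.15, NumPy 2.4.6, SciPy 1.17.1, and matplotlib 3.10.9 were used.

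Members and gene lists were chosen with earlier results of these data known. Named were list genes with such a peak within 100 kb, the 10 genes nearest to most of them (12 with ties), the 10 peaks with the lowest mean percent place, the 5 that moved farthest each way, and the best-placed peak for each shown motif. Some of the items this rule names are not reported here. One marker gene was not found in the annotation by its symbol. Alternatives are given in the closing section. A second performance of the experiment and the other data types of the study were not analysed here.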

Additional observations from a re-analysis of the deposited data

How the results depend on the processing

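No paired analysis was possible because the labels give no replicate numbers and each condition had 1 library. For the same reason no library could be left out. The number of kept distal IRF4-alone peaks was 3004 when every list was restricted to its first 50% and 195 with the BATF and IRF4 names exchanged. In the other 7 settings that change the rule it stayed between 5059 and 6019, and leaving out peaks with a JunB or BATF center within 5 kb kept 5034. Transcription start sites of all transcripts of protein-coding genes, and peaks with no JunB or BATF center within 5 kb, were settings chosen after seeing the data. Of 325 recomputed motif odds ratios, 277 kept their direction and their side of the adjusted threshold. Outside the exchange of names, tandem IRF against missing peaks ranged from 1.70 to 2.43 and AP-1 from 0.309 to 0.426 over 9 settings.

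With the names exchanged, 2 of 33 motif comparisons passed. Tandem IRF had odds ratios of 2.10 against missing peaks (exact adjusted p = 0.109) and 1.08 against triple sites, and AP-1 had 0.674 against missing and 0.636 against promoter peaks. The direction also turned, without passing the threshold, for ETS-IRF (0.515), AICE (1.51), and ETS (0.690) against missing peaks, and for ETS-IRF (0.480), ETS (0.505), RUNX (0.924), and the GC box (0.681) against triple sites. Other turns of direction were TCF/LEF against triple sites with centers within 100 bp (1.01) and with distal set at 5 kb (1.00), GATA against triple sites with 200 bp on each side (0.962) and within strata (0.979), and, in the first 50% of the lists, ETS against missing (0.893) and CTCF against promoter peaks (0.551). The cause was not tested.

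The intronic share was 48.3% with all gene models and 41.7% when any part of the peak counted. A JunB center lay within 1 kb of 2.76% and within 10 kb of 27.9%, and a BATF center within 1 kb of 0.243% and within 10 kb of 17.8%. Genes with such a peak numbered 6595 at 50 kb, 4074 by nearest gene, and 6043 in the first 50% of the lists. The share higher in the *Junb*-deficient list did not leave its interval when centers had to lie within 100 bp.

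The lists keep no tag counts, so a peak missing from the *Junb*-deficient list cannot be told from one just under its threshold, and weak peaks, which make up most of the class, are the least certain. The same holds for a missing JunB or BATF peak. Those libraries had 4.27% and 5.03% of tags in peaks, against 12.8% for IRF4 in *Junb*-sufficient cells. JunB peaks were called at a size of 150 bp and a threshold of 10 tags, BATF and *Junb*-sufficient IRF4 peaks at 612 bp and 19 tags. STAT comparisons, and TCF/LEF against missing peaks, lost the threshold in several settings. Motif tests treat peaks as units and say nothing of the spread between cell preparations.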

Other observations

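Most kept distal IRF4-alone peaks had no other peak of the same class nearby. IRF4 peaks of other classes were left out of this count, and no other class was counted for comparison. With peaks linked at up to 20 kb, 4761 of the 5769 (82.5%) had no other within reach, and 48 groups held 3 or more. The largest groups held 4 peaks. One of them spanned 47.6 kb of chromosome 1 from 132945809 to 132993357, with 3 peaks nearest to *Mapkapk2* and the other nearest to *Il10*, which encodes an anti-inflammatory cytokine. The others lay near *Gzmb*, over 34.6 kb, near *Eea1*, over 35.3 kb, and near *Pom121l2*, over 31.9 kb. By chromosome the class took 16.8% (chromosome 19) to 20.1% (chromosome 16) of the IRF4 peaks on the autosomes and 19.4% on chromosome X.

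Genes that mark cells other than Treg cells had kept distal IRF4-alone peaks within 100 kb as follows, against 46.8% of all protein-coding genes: 2 of 5 B cell markers, 2 of 4 myeloid markers found in the annotation, and 2 of 5 markers of CD8 and natural killer cells. Among Treg markers it was 3 of 5. *Itgam*, a myeloid integrin, had 5.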
